A study of Mus musculus with 20 samples.

Results

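Npas4 encodes a transcription factor of the bHLH-PAS family, and it was followed here through the 1 probe that carries its name, out of 41174 non-control probes for 27962 gene names on the array. RNA came from dissociated mouse hippocampal neurons on day 21 in culture that had been kept for 24 h with 100 µM AP5, a competitive NMDA receptor antagonist, with 100 nM NVP-AAM077 (NVP), an antagonist that prefers receptors holding the Grin2a product, with 1 µM of an antagonist called Ro25 here, or with vehicle (control). The full code that the labels give for Ro25 is unfamiliar, and no receptor preference is given for it. Each of the 4 groups had 5 arrays, 20 in all, and each array set Cy5-labelled culture RNA against a Cy3-labelled universal mouse reference RNA, so a value is log2(Cy5/Cy3), the level in the culture relative to that reference. The labels give no strain, sex or age of the mice and do not say whether the replicates came from separate cultures, so p-values measure the spread between these arrays, which may be technical. The doses of the antagonists differ and each was used at 1 dose.

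In neurons, Npas4 is an immediate early gene that is switched on within minutes by depolarisation and calcium entry through NMDA receptors and voltage-gated calcium channels. Its protein binds DNA as a dimer with a partner of the same family, such as Arnt or Arnt2, and turns on other genes, among them Bdnf. It is known for its part in the formation of inhibitory synapses on excited neurons and in memory in the hippocampus.

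The probe, A_51_P433810, is 60 bases long, and the array's design places it on chromosome 19, bases 4879639 to 4879698 of mouse build mm7, on the minus strand. The sequence upstream of the gene is shown because calcium signals reach activity-regulated genes in part through CREB, a factor that binds the cAMP response element (CRE), whose full letters are TGACGTCA. The following 250 bases end just before the RefSeq transcription start of Npas4, at chr19:4989972-4990221 of GRCm38.p6, minus strand, and are written 5′ to 3′. Capitals mark matches to 7 of the 8 letters of the CRE (TGACGTC, searched on both strands) and to a TATA box (TATATAA).
Npas4 promoter: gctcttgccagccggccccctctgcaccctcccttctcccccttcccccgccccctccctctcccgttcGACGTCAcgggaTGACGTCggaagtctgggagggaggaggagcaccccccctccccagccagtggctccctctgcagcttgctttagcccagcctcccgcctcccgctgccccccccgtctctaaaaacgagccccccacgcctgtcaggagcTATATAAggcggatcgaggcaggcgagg
The shorter CRE was matched at 2 places, beginning at −181 from the start on the opposite strand and at −169 on the gene's own strand, and the TATA box began at −28. Among 32851 RefSeq promoter windows of 300 bases (250 before and 50 after a start), 3.205% held at least 1 match to TGACGTC, 0.128% held 2 matches with no base in common, and 3.242% held TATATAA. The full TGACGTCA, found in 1.79% of windows, had no match in the Npas4 window, nor did the bHLH-PAS core TCGTG (16.04% of windows) or the E-box CANNTG (72.31%). The Npas4 window was 69.3% G and C, against a median of 52.7%. These matches are letters in a reference sequence, and the arrays did not measure binding to them.

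Cultures kept in AP5 had the lowest Npas4 signal, those in Ro25 and NVP lay between, and controls were highest. In AP5 arrays 1 to 5 the log2 ratio was 0.05, 0.14, 0.02, −0.12 and −0.21. In NVP arrays it was 1.28, 1.03, 1.11, 1.31 and 0.75, and in Ro25 arrays 0.96, 1.03, 0.67, 0.91 and 0.54. Control arrays read 1.40, 1.43, 1.67, 1.66 and 1.38. No AP5 array reached the lowest array of any other group, and no array of the 3 antagonist groups reached the lowest control array. The NVP and Ro25 arrays overlapped. Group means were −0.03 ± 0.14 with AP5, 1.10 ± 0.23 with NVP, 0.82 ± 0.21 with Ro25 and 1.51 ± 0.14 in control (SD, n = 5 each).

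**Figure D1:**
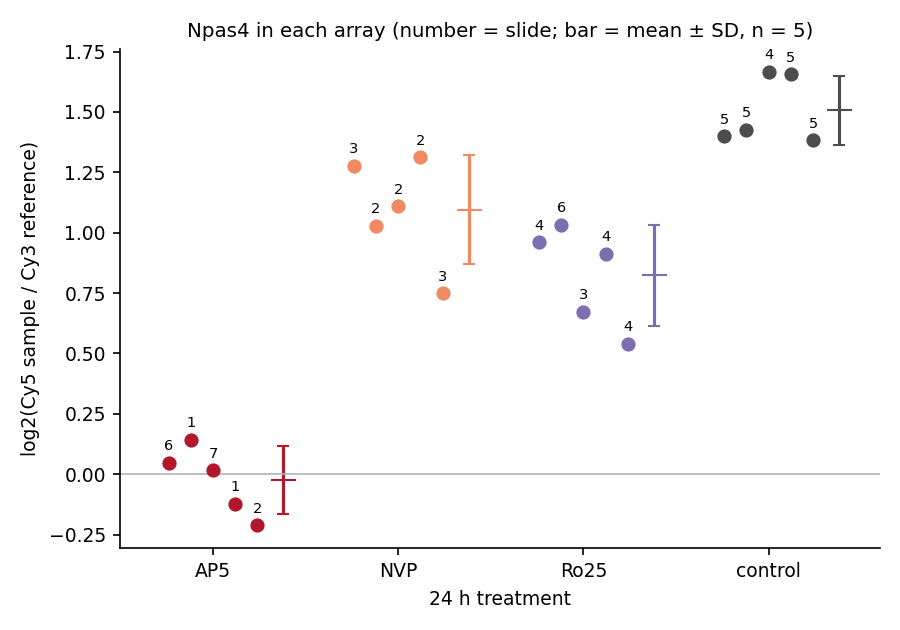
Npas4 log2(Cy5/Cy3) on each of the 20 arrays, by group; the number over a point is the array's slide, and the bar beside each group is its mean ± SD (n = 5). The 5 AP5 arrays lie between −0.21 and 0.14, below every other array, and the 5 control arrays lie between 1.38 and 1.67, above every other array.

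The same order was seen in the culture channel before any normalization. The mean Cy5 brightness of the Npas4 spot was 71.6 to 82.7 scanner units on AP5 arrays, 179.2 to 261.9 on NVP arrays, 132.7 to 193.3 on Ro25 arrays and 249.1 to 343.5 on control arrays. After subtraction of the local background, AP5 arrays kept 28.7 ± 8.93 units, NVP arrays 158.1 ± 36.4, Ro25 arrays 110.4 ± 21.8 and control arrays 240.1 ± 42.2 (SD, n = 5 each). By the scanner's own test the spot was well above background in Cy5 on 0 of 5 AP5 arrays and on 5 of 5 arrays of each other group, and it was saturated on 0 arrays. AP5 spots were nonetheless brighter than the 95th percentile of the 153 negative control spots on 5 of 5 arrays, and 96.7 to 100% of the negative controls were dimmer. The Npas4 signal in AP5 cultures was therefore at the edge of what these arrays detect, and a fold against it is a lower bound.

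The reference channel was dim and moved less than the culture channel. Cy3 of the same spot was 1.42 to 1.87 times its local background. By the scanner's test it was well above background on 4 of 5 AP5, 4 of 5 Ro25, 5 of 5 NVP and 5 of 5 control arrays. Background-subtracted Cy3 averaged 23.2 ± 4.17 units on AP5 arrays, 29.7 ± 6.21 on NVP arrays, 26.4 ± 3.96 on Ro25 arrays and 31.9 ± 4.39 on control arrays (SD, n = 5 each). These means stood in the same order as in Cy5. Over 6 pairs of groups none differed in Cy3 by an exact two-sided permutation test after Benjamini-Hochberg adjustment. The lowest was AP5 against control, at −0.46 on the log2 scale (exact p = 0.0238, adjusted p = 0.143). In Cy5, 6 of 6 pairs passed the same test (adjusted p = 0.0119 to 0.0238), with AP5 at −3.11, Ro25 at −1.13 and NVP at −0.61 on the log2 scale against control.

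**Figure D2:**
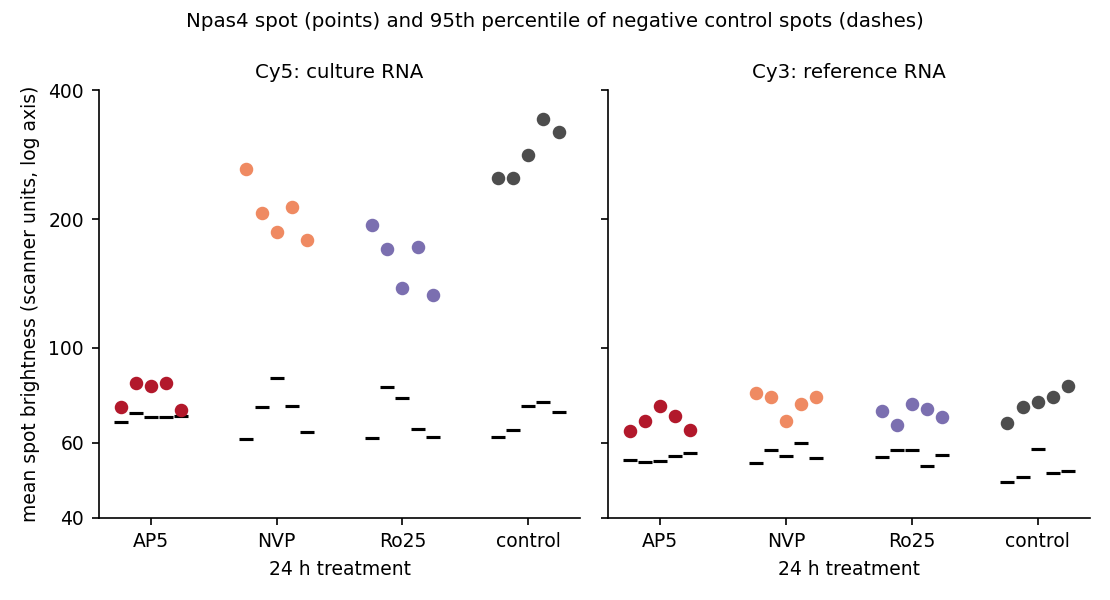
Mean brightness of the Npas4 spot in scanner units (log axis) on each array, in the culture channel (Cy5, left panel) and the reference channel (Cy3, right panel), by group; dashes mark the 95th percentile of the negative control spots on the same array. Cy5 spots of AP5 arrays lie just over their dashes at 71.6 to 82.7 units, those of control arrays at 249.1 to 343.5, while Cy3 spots of all groups lie close together.

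AP5 against control asked how the culture's transcripts differed after 24 h with this NMDA receptor antagonist. The arrays did not measure how fully it blocked the receptors. By the group means Npas4 was 2.89-fold lower with AP5 than in control, a lower bound in that the AP5 signal was at the edge of detection. The spread between arrays is not in this bound, and the interval gives it. The difference of the log ratios was −1.53 (SE 0.11, 95% interval −1.77 to −1.30, limma adjusted p = 3.82e-08), and 5 of 5 AP5 arrays lay below the control mean. Of 19340 genes tested, 3.59% were called lower with AP5 and 2.53% higher. In 3.91% of genes all 5 AP5 arrays lay below all 5 control arrays, as they did for Npas4. For Npas4 alone the exact permutation p was 0.00794, the smallest that 252 splits of 10 arrays can give, and 0.00952 after adjustment over the 6 pairs. The size was −2.03 with a smaller offset of 16 added after background correction and −3.38 with the scanner's processed signals, and the cause of this was not tested. AP5 and control shared no slide, so the value with slide as a block (−1.86, SE 0.28, limma adjusted p = 0.0188) rests on the other groups: Ro25 shared slide 6 with AP5 and slide 4 with control, while NVP shared slides with AP5 and Ro25 and none with control. On the first scan day alone (3 AP5 and 5 control arrays) the difference was −1.57 (SE 0.13, adjusted p = 1.99e-06).

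With Ro25, Npas4 was 1.61-fold lower than in control. The difference was −0.68 (SE 0.11, 95% interval −0.92 to −0.45), and 5 of 5 Ro25 arrays lay below all 5 control arrays, as in 0.667% of genes. It stood at the edge of the genome-wide threshold (limma adjusted p = 0.0473), where 0.0155% of genes, 3 in all, were called lower. Among them was Cnn2, an actin-binding calponin (−0.48, SE 0.08, with the same limma adjusted p of 0.0473), which was chosen for naming after its value was seen. By the exact permutation test of Npas4 alone, p was 0.00794 (adjusted p = 0.00952 over 6 pairs). The genome-wide call is not stable: it was kept when AP5 1, AP5 2, NVP 5 or Ro25 2 was left out (limma adjusted p = 0.0323 to 0.049) and lost when any other of the 20 arrays was (AP5 3 to 5, NVP 1 to 4, Ro25 1 and 3 to 5, and control 1 to 5; adjusted p = 0.0503 to 0.21). The difference itself stayed between −0.74 and −0.61 in these fits. On slide 4, which held 3 Ro25 arrays and control 3, the Ro25 mean was 0.81 and the control value 1.67, a difference of −0.86. The slide block gave −0.86 (SE 0.21, limma adjusted p = 0.575), and the first scan day −0.73 (SE 0.12, adjusted p = 0.0765).

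With NVP, Npas4 was 1.33-fold lower than in control, a difference of −0.41 (SE 0.11, 95% interval −0.64 to −0.18). All 5 NVP arrays lay below all 5 control arrays, as did those of 1.23% of genes. Across all genes this did not pass (limma adjusted p = 0.511), nor did any other gene: 0 of 19340 were called with NVP, while 1137 (5.88%) had an unadjusted limma p under 0.05. The exact permutation test of Npas4 alone gave p = 0.00794 (adjusted p = 0.00952 over 6 pairs). No slide held both NVP and control arrays. In the fit blocked by slide the difference was −0.51 (SE 0.28, limma adjusted p = 0.76).

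Between antagonists, at doses that differ, 3 pairs were compared. The folds against AP5 are bounds in that its signal was dim, and they do not take in the spread between arrays. Npas4 was at least 2.17-fold lower with AP5 than with NVP (difference −1.12, SE 0.11, 95% interval −1.35 to −0.89, limma adjusted p = 3.1e-06), where 3.09% of genes were called lower and the groups of 3.74% did not overlap in that direction. It was at least 1.77-fold lower with AP5 than with Ro25 (difference −0.85, SE 0.11, interval −1.08 to −0.62, limma adjusted p = 9.24e-05), where 1.97% were called lower and 2.6% did not overlap. Within slide 2, AP5 5 differed from 3 NVP arrays by −1.36, and within slide 6, AP5 1 differed from Ro25 2 by −0.99. Both passed with the slide block (limma adjusted p = 0.00278 against NVP and 0.0305 against Ro25). NVP and Ro25 were not told apart: the difference of NVP minus Ro25 was 0.27 (SE 0.11), with an interval of 0.04 to 0.50 that is not adjusted for the genes tested (limma adjusted p = 0.811, exact permutation p = 0.0952, and 0.0952 after adjustment). The background-subtracted Cy5 of the 2 groups alone differed by 0.51 on the log2 scale (exact permutation adjusted p = 0.0238). Without NVP 5, the lowest NVP array, the exact adjusted p of the log ratios was 0.0238 as well. On slide 3, 2 NVP arrays averaged 1.01 and Ro25 3 read 0.67. In the order of log ratios, no AP5 array reached an Ro25 array and no antagonist array a control array, while Ro25 and NVP overlapped. NVP against control passed only by exact permutation tests of Npas4 alone, and not across all genes (limma adjusted p = 0.511). In Cy5 before normalization these 2 groups overlapped, with NVP 1 at 261.9 and control 2 at 249.1 units.

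**Figure D3:**
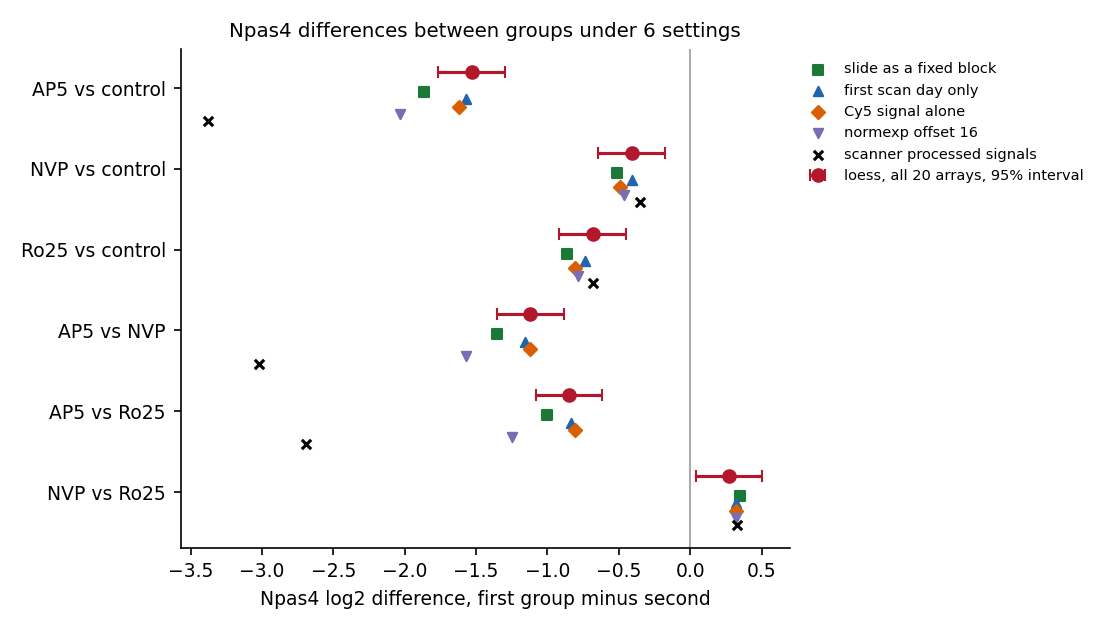
Npas4 differences on the log2 scale for the 6 pairs of groups, the first-named group minus the second; the red point and bar are the fit to all 20 arrays with its 95% interval, and the smaller marks are the same difference under 5 other settings. All 5 negative differences stay negative, and those that involve AP5 spread the most, to −3.38 for AP5 against control with the scanner's processed signals.

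Other immediate early genes fell with AP5 as well. Of 22 on the list, 14 were called lower with AP5, 0 higher, and 8 did not pass (limma adjusted p under 0.05). Among all genes 3.59% were called lower and 2.53% higher. The median difference of the 22 was −0.56, against −0.01 over all genes. Blocked by slide, 4 of the 22 were called lower, out of 35 lower calls among all genes. With median centring in place of loess 5 were, out of 99. Arc, which acts on AMPA receptor trafficking at synapses, read 0.10 to 0.95 on AP5 arrays and 2.92 to 3.05 on control arrays, and fell by 2.65 (SE 0.12, limma adjusted p = 2.71e-11). Nr4a1, an orphan nuclear receptor, read −2.96 to −2.49 with AP5 and −0.66 to 0.04 in control, and fell by 2.31 (SE 0.12, adjusted p = 1.5e-10). The groups did not overlap for either gene, as in 3.91% of all genes in that direction. Egr1, a zinc finger factor, fell by 1.56 (SE 0.18, limma adjusted p = 1.04e-05, or 0.0555 blocked by slide), and its relative Egr3 by 1.77 (SE 0.14, adjusted p = 6.08e-08). Fos, a subunit of AP-1, differed by −0.95 (SE 0.30, limma adjusted p = 0.0636) and did not pass; blocked by slide it stood at 0.27. With the replicate number of the titles as a block it passed, at −0.95 (SE 0.12, limma adjusted p = 0.000134), and so it did when AP5 5, NVP 5, Ro25 5 or control 3 was left out (adjusted p = 0.0245 to 0.0469).

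With NVP and Ro25 0 of the 22 immediate early genes were called lower and 0 higher, by limma. Among all 19340 genes 0 were called with NVP and 3 with Ro25. At the same time 19 of the 22 differences were negative with NVP, against 10558 of all 19340 genes. With Ro25 21 of 22 were, against 9534 of 19340. The medians were −0.15 with NVP and −0.21 with Ro25, against −0.01 and 0.00 over all genes. Both comparisons use the same control arrays. Nr4a1 stood at −0.52 with NVP and −0.56 with Ro25 (limma adjusted p = 0.484 and 0.314), and Arc at −0.23 and −0.43 (adjusted p = 0.872 and 0.686).

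Whether Npas4 changed by a different amount than these genes was tested on the difference of log ratios within each array, in 15 exact permutation tests adjusted together. The log ratio change of Npas4 with AP5 was smaller than that of Arc by 1.11 and than that of Nr4a1 by 0.78, but neither passed (exact adjusted p = 0.119 for both, unadjusted p = 0.00794 and 0.0159). For Arc that unadjusted p is the smallest that 5 arrays a group can give. Alone at this floor among 15 tests, it could not pass, so not passing does not show an equal change. The change of Npas4 differed from that of Egr1 by 0.03, of Bdnf by 0.08 and of Fos by −0.58 (exact adjusted p = 0.918, 0.843 and 0.372). Since the AP5 level of Npas4 is a bound, so is its change: with the scanner's processed signals its change exceeded that of Arc by 0.62 (a difference of −0.62), of Nr4a1 by 1.05 (−1.05), of Bdnf by 1.74 (−1.74), of Egr1 by 1.82 (−1.82) and of Fos by 2.21 (−2.21). Those from Bdnf, Egr1 and Fos then passed (exact adjusted p = 0.0397 each), and those from Nr4a1 and Arc did not (0.0893 and 0.238). With NVP and Ro25, 0 of 10 such differences passed. The nearest was that of Bdnf with Ro25, at −0.37 (exact p = 0.0476, adjusted p = 0.214).

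**Figure D4:**
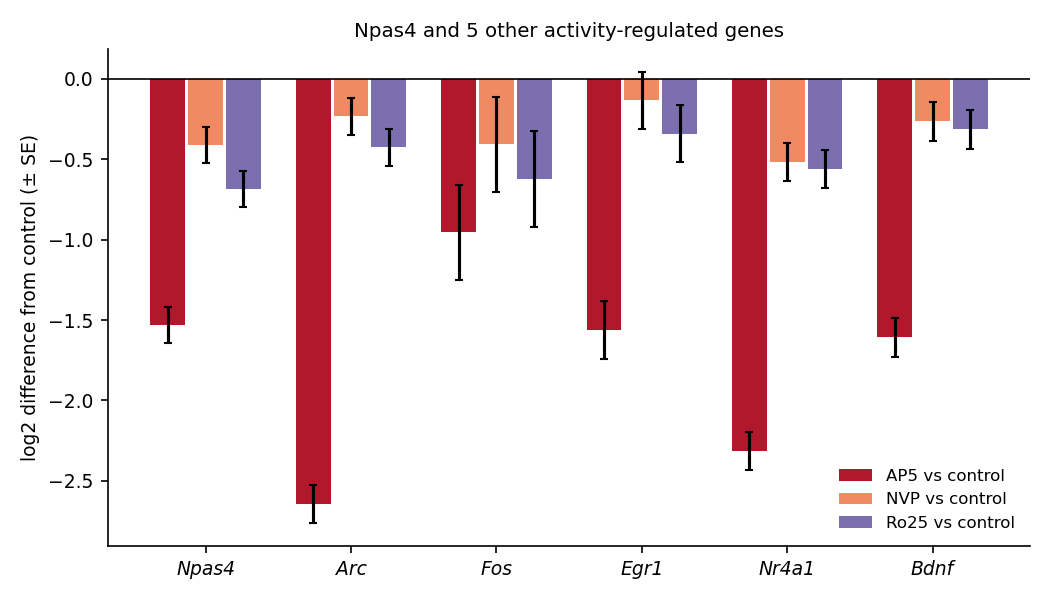
Differences from control on the log2 scale (± SE from limma, 5 arrays a group) for Npas4 and for Arc, Fos, Egr1, Nr4a1 and Bdnf, with a bar for each antagonist. The AP5 bar is the lowest for each gene, and the AP5 bar of Npas4, at −1.53, is a lower bound on the size of its fall.

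Of 8 genes reported as targets of Npas4, 4 were called lower with AP5, 0 were called higher and 4 did not pass, with a median difference of −0.44; among all genes 3.59% were called lower. Bdnf, a neurotrophin, read 0.24 to 1.00 on AP5 arrays and 2.12 to 2.57 on control arrays, and fell by 1.61 (SE 0.12, limma adjusted p = 5.59e-08). Nptx2, a secreted synaptic pentraxin, fell by 1.16 (SE 0.13, adjusted p = 6.52e-06 by limma). Rgs2, a regulator of G protein signalling, fell by 1.13 (SE 0.10, limma adjusted p = 2.02e-07), and Csrnp1, a nuclear protein, by 0.45 (SE 0.09, adjusted p = 0.00503). The kinase Plk2 stood at 0.17, the synaptotagmin Syt10 at −0.43, the membrane glycoprotein Tpbg at 0.10 and the ubiquitin ligase Mdm2 at −0.05. Under the slide block 0 of the 8 were called, but only 35 of all 19340 genes were called lower and 6 higher. With so few calls, 0 of 8 does not set these genes apart. In that fit Bdnf stood at −1.30, Nptx2 at −1.34, Rgs2 at −1.08 and Csrnp1 at −0.01 (limma adjusted p = 0.134, 0.12, 0.136 and 0.989). With NVP and with Ro25 0 of 8 were called by limma, where 0 and 3 of all 19340 genes were.

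In Npas4's own family, 12 of 15 other bHLH-PAS genes were tested, and 0 were called in either direction with any antagonist, by limma. With AP5 3.59% of all genes were called lower and 2.53% higher. With NVP 0 and with Ro25 3 of all 19340 genes were called. So 0 of 12 does not set the family apart with any of them. Its median difference with AP5 was 0.06. The dimer partners Arnt, Arnt2 and Arntl stood at 0.07 (SE 0.11), −0.03 (SE 0.14) and 0.15 (SE 0.08) with AP5. Arntl2, Sim1 and Sim2 did not pass the filter on dim probes.

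Among genes that carry calcium signals to the nucleus, 23 of 25 were tested, and 4 were called lower with AP5 and 0 higher, against 3.59% and 2.53% of all genes. With median centring in place of loess 0 were called lower, out of 99 lower calls among all genes. Without control 3, 2 were called higher, out of 425 higher calls among all genes. Camkk2, the kinase that activates Camk1 and Camk4, fell by 0.59 (SE 0.08, limma adjusted p = 0.000125, or 0.0276 blocked by slide), and with median centring it stood at −0.48 (adjusted p = 0.63). Camk4, a nuclear kinase that acts on CREB, fell by 0.62 (SE 0.17, limma adjusted p = 0.0281), Calm2, a calmodulin gene, by 0.32 (SE 0.08, adjusted p = 0.0139), and Camk1, named after its value was seen, by 0.33 (SE 0.10, adjusted p = 0.0485). With median centring Camk4 and Calm2 did not pass either (limma adjusted p = 0.653 and 0.97). Camk4 did not pass without AP5 3, 4 or 5 or control 1, 3 or 4 (limma adjusted p = 0.0548 to 0.0846), and 2 genes of the list were called lower without AP5 3, 4 or 5 or control 1 or 4. Blocked by slide 1 of the 23 was called, where 41 of all 19340 genes were. On the first scan day alone 1 of the 23 was called, where 911 of all genes were. The median of the list was 0.03. Of the 7 NMDA receptor subunit genes 0 were called with any antagonist, by limma. With NVP 0 and with Ro25 3 of all 19340 genes were called, and with AP5 3.59% were lower and 2.53% higher. So 0 of 7 does not set these genes apart.

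Marker genes of cell types were compared as a check on the cultures, which the labels call neurons. With AP5 3.59% of all genes were called lower and 2.53% higher, so 0 calls in lists as short as these do not set markers apart. Of 10 neuron markers 0 were called with AP5, and their mean log2 ratio was 4.17 to 4.84 on AP5 arrays and 4.49 to 4.83 on control arrays. Of 8 astrocyte markers 0 were called, with means of 3.31 to 4.98 and 3.93 to 4.59; the cultures thus held astrocyte transcripts as well. AP5 1 stood apart as the low end of both lists: the other 4 AP5 arrays had means of 4.69 to 4.84 for neuron and 4.41 to 4.98 for astrocyte markers. It was also the lowest of them for excitatory (2.16, against 3.03 to 3.35) and oligodendrocyte markers (1.99, against 2.33 to 2.58). Without AP5 1 the Npas4 difference between AP5 and control was −1.55 (SE 0.12, limma adjusted p = 1.53e-07). Excitatory (6 tested), inhibitory (8) and oligodendrocyte markers (7) had 0 calls with AP5 by limma; with AP5 1 left out 1 neuron and 1 excitatory marker were called higher, with AP5 5 left out 1 oligodendrocyte marker lower, and with Ro25 2 or control 3 left out 1 and 2 inhibitory markers higher. Other settings made calls too: with Cy5 alone 3 neuron markers were lower and 1 higher, 1 excitatory marker was lower and 3 higher, and 2 inhibitory markers were higher; with processed signals 1 neuron and 2 excitatory markers were higher; with the deposited values 2 excitatory and 2 inhibitory markers were higher; and with the replicate number as a block 2 oligodendrocyte markers were lower. Of 5 microglia markers tested, Csf1r was called higher, at 0.46 (limma adjusted p = 0.00279; blocked by slide the difference was −0.05), with list means of −1.95 to −1.77 on AP5 arrays and −1.95 to −1.80 on control arrays. Of 5 endothelial and fibroblast markers tested, Col1a2 was called lower, at −0.25 (adjusted p = 0.0495), and it passed only without AP5 5 or NVP 5 among the 20 fits that left out an array (adjusted p = 0.0152 to 0.129 over all 20). The part of these cells in the Npas4 result was not tested, and fewer cells that express Npas4 cannot be told apart from less Npas4 RNA per cell.

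The genes whose log ratios followed Npas4 most closely over the 20 arrays were sought among 18048 tested genes that were well above background on at least 10 arrays. The 8 with the highest Pearson r were Gadd45b and Rgs2 (0.95 each), Egr3 and Nfkbib (0.93 each), Grasp (0.92), and Arc, C77080 and Dleu2 (0.92 each). Gadd45b belongs to a family of stress-response proteins, Nfkbib encodes an inhibitor of NF-κB, Grasp a scaffold protein of the postsynapse, and Dleu2 a long non-coding RNA. The 4 with the lowest were Tmtc4 and Golm1 (−0.95 each), Rapgef3, an exchange factor that cAMP activates (−0.91), and Laptm4b, a lysosomal membrane protein (−0.90). Over all candidates the median r was 0.02, and the 99th percentile 0.79. These values are a description: the points share arrays, and the AP5 group sets most of the range. Without the AP5 arrays (15 arrays) r was 0.89 for Grasp, 0.83 for Arc and Rgs2, 0.78 for Gadd45b, 0.72 for Nfkbib, 0.70 for Egr3, 0.65 for Dleu2 and 0.60 for C77080. With median centring in place of loess r was 0.22 for Nfkbib, 0.53 for C77080 and −0.49 for Laptm4b. Within groups, as deviations from the group means, r ranged between 0.29 for Arc and 0.73 for Dleu2 among the 8.

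**Figure D5:**
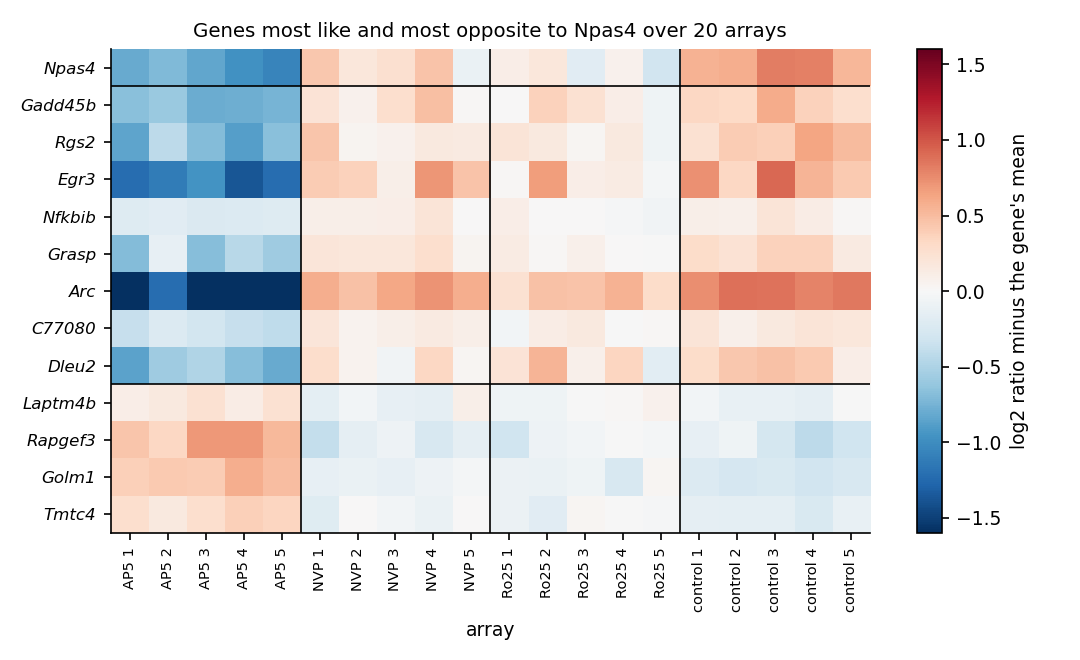
Log2(Cy5/Cy3) of Npas4, of the 8 genes with the highest and of the 4 with the lowest correlation with it, each minus the gene's mean over 20 arrays (colour scale, red above and blue below the mean); columns are arrays, by group. The AP5 columns are blue for the upper 9 genes and red for the lower 4, and the NVP, Ro25 and control columns differ less from each other.

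These genes were chosen for following Npas4 over arrays whose range AP5 sets, so their AP5 values are a description. Gadd45b fell by 1.09 (SE 0.09, limma adjusted p = 2.25e-07), Dleu2 by 1.02, Grasp by 0.78, C77080 by 0.50 and Nfkbib by 0.31, while Rapgef3 rose by 0.78, Golm1 by 0.71, Tmtc4 by 0.44 and Laptm4b by 0.26. In the slide-blocked fit Gadd45b, Egr3, Grasp and Arc passed, and the other 8 did not (limma adjusted p = 0.0622 to 0.278). With NVP and with Ro25 0 of the 12 were called by limma, where 0 and 3 of all 19340 genes were. Rgs2, at −0.27 and −0.34, and Egr3, at −0.18 and −0.41, had some of the lower values. Of the 8 genes most like Npas4, 6 had a promoter in the RefSeq table, and 0 of the 6 held TGACGTC, the shorter CRE that the Npas4 promoter holds at 2 places. Among all genes there, 974 of 27025 did, so 0 of 6 does not set these genes apart. Of 17 immediate early genes with a promoter there, 5 did (Btg2, Dusp1, Egr2, Maff and Nr4a3). The letters TGACG alone were held by 3 of the 6 (Dleu2, Nfkbib and Rgs2), 14 of the 17 and 6228 of the 27025.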

How the data were processed

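Spot intensity files of 20 two-colour Agilent arrays were deposited by the authors; the file headers name Feature Extraction 10.7.3.1 and the submitters' processing notes 11.0. The files also hold log10 ratios of the scanner's processed signals, per the file headers. The authors also deposited a table of log2 ratios, used as an alternative. Mean intensities were background-corrected (normexp, offset 50) and loess-normalized within arrays. Log2(Cy5/Cy3) was fitted with limma 3.58.1 in R 4.3.3 (1 mean per group, 16 residual df, two-sided), with Benjamini-Hochberg adjustment over 19340 genes, each read from its brightest probe among 28494 well above background in Cy5 on at least 5 arrays. Outlier-flagged spots (0.282%) were left out. Cy5 was well above background at 63.7% (AP5), 64.2% (NVP), 64.6% (Ro25) and 65.9% (control) of probes, and the number of arrays limits the precision. Dyes were not swapped. Where Npas4 was not above background in a group, a fold is a bound, set from the other group's mean and the dim group's signal. On each AP5 array that signal was the higher of the dimmest signal well above background and the spot's own. The ratios were used where their fold is smaller. The AP5 mean so set equalled the measured one (6.505 for both on the log2 scale), so the bounds are the measured folds. Promoters are RefSeq's. Genes named are Npas4, 5 activity genes, the targets, 3 partners, up to 3 called members per list and the 12 most and least alike. The members and lists were chosen with earlier results of these data known. On simulated data for AP5 against control (19304 genes), 72 of 100 genes changed 1.5-fold and 98 of 100 changed 2-fold were called. Of 180 calls 10 were false. The simulated noise was independent between arrays, with no slide or scan-day effect, so these counts do not cover such effects in the real arrays. Alternatives covered background, normalization, filter, slide, scan day, replicate number and each array left out.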

Additional observations from a re-analysis of the deposited data

How the results depend on the processing

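The difference of Npas4 between AP5 and control kept its direction and passed under every other setting run, at −3.38 (processed signals) to −1.52 (deposited value table), and in all 20 fits without an array (−1.57 to −1.49); Aquantile scaling leaves log ratios as they are by construction and tests nothing here. AP5 against NVP and against Ro25 passed in the same 20 fits, at −1.21 to −1.07 and −0.92 to −0.80. Ro25 against control kept its direction but lost its call with median centring (−0.69, limma adjusted p = 0.276), processed signals (−0.68, 0.73), an offset of 16 (−0.79, 0.215), Cy5 alone (−0.81, 0.0605), no filter (−0.68, 0.0501), every probe on its own (−0.68, 0.064), slide as a block (−0.86, 0.575), the first scan day (−0.73, 0.0765) and the 2 groups' arrays alone (−0.68, 0.215). Fits without an array gave −0.74 to −0.61. The exact test of NVP against control was lost with processed signals (−0.35, adjusted p = 0.181), and without an array it gave −0.47 to −0.33. NVP against Ro25 was 0.20 to 0.36 in those fits. The cause of these changes was not tested.

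Immediate early genes called lower with AP5 numbered 5 with median centring and 4 with slide as a block (11 to 15 without an array), and reported targets 0 with slide as a block (4 in each fit without an array). Genes called with AP5 numbered 1183 (694 lower, 489 higher), 165 with median centring (99 lower, 66 higher), 41 with slide as a block (35 and 6), 2095 with Cy5 alone (1189 and 906), 1371 with the value table (657 and 714), 1535 with processed signals (735 and 800), 911 on the first scan day (460 and 451) and 775 in the 2 groups alone (474 and 301). For AP5 against NVP they numbered 1118, and 121 with median centring, 108 under the slide block and 634 among arrays of the first scan day; for AP5 against Ro25 599, and 85, 205 and 299 under the same settings, with 235 in the 2 groups alone. Genes called with Ro25 numbered 3 and, without an array, 0 to 5.

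Some directions turned. With median centring Mdm2 stood at 0.10 and Arnt2 at 0.057 with AP5. Arnt2 stood at 0.20 with processed signals, 0.032 with Cy5 alone, 0.11 with the value table and 0.086 on the first scan day, and Arnt at −0.21 with the value table and −0.016 on that day. With slide as a block Fos was 0.27, Plk2 −0.16, Mdm2 0.41 and Csf1r −0.047. Without an array Arnt2 ranged over −0.13 to 0.16 and Tpbg over −0.01 to 0.20. The change of Npas4 minus that of another gene turned for Egr1 with AP5 at −0.10 (median centring), −1.82 (processed signals), −0.44 (offset of 16) and −0.07 (Cy5 alone), for Bdnf at −1.74 (processed signals), −0.41 (offset of 16) and −0.56 (slide as a block), and for Arc at −0.62 and Nr4a1 at −1.05 (processed signals). Under processed signals the differences from Fos (−2.21), Egr1 and Bdnf with AP5 passed (exact adjusted p = 0.0397 each). For Fos it was 0.018 (median centring) and 0.10 (processed signals) with NVP, and 0.012 (processed signals) with Ro25, and for Nr4a1 −0.14 (slide as a block) with NVP. Without an array, the differences with AP5 were 1.04 to 1.22 for Arc, −0.86 to −0.34 for Fos, −0.043 to 0.15 for Egr1, 0.64 to 0.89 for Nr4a1 and −0.021 to 0.20 for Bdnf. For Fos they were −0.28 to 0.30 with NVP and −0.34 to 0.21 with Ro25, and for Nr4a1 −0.037 to 0.21 with NVP.

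Replicate numbers in the titles were not taken to pair the arrays, since the labels do not say that they do: over 30 same-numbered pairs the correlation of deviations was −0.45 to 0.76 (median 0.04), with 11 over 0.1, and 4 of 20 arrays correlated best with their own number. Replicate 5 was, even so, the lowest Npas4 array of each group (−0.21 with AP5, 0.75 with NVP, 0.54 with Ro25 and 1.38 in control) and the highest Fos array (−2.42, −1.75, −2.07 and −1.25 in the same order). With the replicate number as a block, Npas4 stood at −1.53 with AP5 (limma adjusted p = 3.9e-08), −0.68 with Ro25 (0.0158) and −0.41 with NVP (0.469). By limma in that fit, in place of permutations, the difference from Arc (1.11, adjusted p = 5.9e-07), from Nr4a1 (0.78, 4.52e-05) and from Fos (−0.58, 0.0135) with AP5 passed, as did that from Bdnf with Ro25 (−0.37, 0.000949). With slide as a random block, also by limma, those from Arc (1.12, adjusted p = 5.56e-07) and Nr4a1 (0.80, 0.000687) passed. Signal over background limits the AP5 values, which are bounds. Fitting every probe on its own was run for Npas4 but not for the gene lists or the other named genes.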
